A study of Mus musculus with 2 samples.

Results

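Kinetochore and mitosis genes are described here as a set of 35 of the 21644 protein-coding genes of the mouse, in DNase-seq of the embryonic face. The genes are named members of the centromere, the kinetochore, the spindle checkpoint and the mitotic kinase machinery. They were chosen by the strength of their promoter peaks in these data: the highest peak of both libraries lay at the promoter of Hjurp, and the other members were named beside it. Their promoter peaks and ranks are therefore given as a description, with no test.

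The kinetochore is the protein structure that is built on centromeric chromatin and holds a chromosome to the microtubules of the spindle. Its inner part stays on chromatin that carries the histone variant CENP-A, its outer part binds microtubules, and the spindle checkpoint delays chromosome separation while a kinetochore is unattached. Many of the genes are transcribed late in the cell cycle, and in cultured human and mouse cells their promoters are known for the CHR element, bound by MuvB-containing complexes, and for CCAAT boxes, bound by NF-Y. The facial prominences are outgrowths of neural crest mesenchyme and ectoderm that proliferate while the face forms.

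DNase-seq records where the nuclease DNase I cuts open chromatin. Both libraries came from B6NCrl embryos at day 11.5, healthy, with male and female embryos pooled, and form a single group of 2 biological replicates. The labels give them separate biosamples and the same donor label, and name the HiSeq 2500 and NextSeq 500 for both and an earlier HiSeq model in addition for replicate 2. No treatment and no control group is in the series, so values are set beside those of all protein-coding genes. Where the libraries are called replicates, their spread is that between these 2 samples, and pooled embryos give no spread between animals.

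Peaks of 150 bp numbered 209299 in replicate 1 and 219061 in replicate 2 on chromosomes 1 to 19 and X. Each carried a strength deposited by the authors, a whole number of unstated unit with a median of 16 and a maximum of 134 in replicate 1, and a median of 42 and a maximum of 149 in replicate 2. Strengths were compared only by rank within a library, as a percentile among all its peaks. A promoter peak had its midpoint within 1000 bp of a transcription start site (TSS) of a protein-coding transcript, and peaks that overlapped by at least 75 bp between the libraries were shared. All 12 transcription factor genes listed for facial mesenchyme had a promoter peak in each library, and 10 of them had a shared one. Shared promoter peaks were found for 4 of 6 ectoderm, 2 of 5 endothelium and 1 of 4 macrophage markers. For red cell and liver markers the counts were 0 of 4 and 0 of 3. Without the need for sharing, replicate 1 had promoter peaks at 4 ectoderm, 2 endothelium, 1 macrophage, 1 red cell and 1 liver marker. In replicate 2 these counts were 6, 5, 1, 2 and 1. The shares over all genes were 67.3% in replicate 1, 70.8% in replicate 2 and 64.2% for shared peaks. In bulk tissue, a larger share of cells with an open promoter and a wider opening per cell cannot be told apart.

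The sequences of the 3 members with the highest mean percentile over both libraries, Hjurp, Birc5 and Cenpf, are shown first as the 150 bp of the replicate 1 promoter peak, because these promoters lead the set. In replicate 2 alone, Cdk1 tied with Birc5 and stood above Cenpf. They are read from GRCm38.p6 (RefSeq), the same build as mm10, on the strand of the gene and 5′ to 3′. Capitals mark CHR elements (TTTGAA or TTCGAA, on either strand), CCAAT boxes (CCAAT or ATTGG) and E2F motifs.
Hjurp, chr1:88277536-88277685, minus strand: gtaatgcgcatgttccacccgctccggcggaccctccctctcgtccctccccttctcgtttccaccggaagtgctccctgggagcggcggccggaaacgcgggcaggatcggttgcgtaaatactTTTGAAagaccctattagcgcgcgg
Birc5, chr11:117849136-117849285, plus strand: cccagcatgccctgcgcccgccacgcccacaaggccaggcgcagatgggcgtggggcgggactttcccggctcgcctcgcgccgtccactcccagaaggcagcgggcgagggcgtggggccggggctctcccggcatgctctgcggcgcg
Cenpf, chr1:189688096-189688245, minus strand: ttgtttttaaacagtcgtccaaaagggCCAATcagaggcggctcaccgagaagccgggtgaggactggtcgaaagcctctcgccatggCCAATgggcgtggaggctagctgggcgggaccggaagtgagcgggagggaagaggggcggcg
The Hjurp peak held a CHR that began 74 bp after the GENCODE start used here and 20 bp after the start that RefSeq gives. This CHR lies past the end of the window searched below. In that window Hjurp held another CHR at −208 and a CCAAT box at −128, both outside its shared peaks. The Cenpf peak held a pair of CCAAT boxes, and the Birc5 peak held none of these motifs.

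After Hjurp and Cenpf, the highest ranked members with both a CHR and a CCAAT box within 250 bp before to 50 bp after the TSS included Cdk1, Aurka and Ttk. These windows are printed because the same letters recur in them.
Cdk1, chr10:69352889-69353188, minus strand: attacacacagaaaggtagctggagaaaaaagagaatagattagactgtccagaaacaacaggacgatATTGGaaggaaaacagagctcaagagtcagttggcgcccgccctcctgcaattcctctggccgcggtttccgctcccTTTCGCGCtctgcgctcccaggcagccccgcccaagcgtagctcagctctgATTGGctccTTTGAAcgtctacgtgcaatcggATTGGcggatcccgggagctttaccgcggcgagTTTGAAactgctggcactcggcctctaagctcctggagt
Aurka, chr2:172370486-172370785, minus strand: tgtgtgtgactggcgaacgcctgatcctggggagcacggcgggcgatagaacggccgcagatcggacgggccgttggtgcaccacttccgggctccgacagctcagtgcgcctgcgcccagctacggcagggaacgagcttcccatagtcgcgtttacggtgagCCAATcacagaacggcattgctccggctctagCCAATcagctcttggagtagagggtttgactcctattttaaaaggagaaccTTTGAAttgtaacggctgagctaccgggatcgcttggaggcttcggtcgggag
Ttk, chr9:83834440-83834739, plus strand: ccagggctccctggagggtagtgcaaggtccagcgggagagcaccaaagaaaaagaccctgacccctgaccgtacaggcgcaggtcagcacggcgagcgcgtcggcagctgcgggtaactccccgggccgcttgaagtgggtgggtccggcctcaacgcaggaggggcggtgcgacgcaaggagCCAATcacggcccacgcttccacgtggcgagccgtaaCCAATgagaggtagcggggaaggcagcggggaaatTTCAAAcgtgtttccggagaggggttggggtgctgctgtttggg
In Cdk1, Aurka and Ttk a pair of CCAAT boxes stood upstream of the start, with a CHR at the start or just after it, and Cdk1 held a further CHR between its boxes.

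All 35 members had a promoter peak in each library, against 67.3% of all protein-coding genes in replicate 1 and 70.8% in replicate 2. A shared promoter peak was present at 34 of 35 members, against 64.2% of all genes. The exception was Ndc80. The members' strongest promoter peaks had a median strength of 93 in replicate 1 and 130 in replicate 2, which is a median percentile of 97.49 and 97.76 among all peaks (mean 97.62 ± 0.19 SD, n = 2 libraries). Promoters as a class are strong: over all genes with a promoter peak, the median strength was 85 in replicate 1 and 121 in replicate 2. Ranked among the genes with a promoter peak, the median member stood at percentile 64.2 in replicate 1 and 68.3 in replicate 2.

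The strongest 1% of peaks held the promoters of 7 of 35 members in replicate 1, where it held 10.4% of all genes. In replicate 2 it held 8 of 35, and 9.72% of all genes. Over genes with a promoter peak, these were 2259 of 14576 in replicate 1 and 2103 of 15328 in replicate 2. The strongest 5% held 34 of 35 members in replicate 1 (40.3% of all genes) and 34 of 35 in replicate 2 (41.5%). It held 33 of 35 members in both libraries (37.6%). Cenph in replicate 1 and Knl1 in replicate 2 were the members outside it. Among genes with a shared promoter peak the background was higher, with 32 of 34 members and 58% of all such genes in the strongest 5% of both libraries. Every member's strongest promoter peak lay in a hotspot, a wider enriched region, whose deposited −log10 q was at its ceiling of 100 in both libraries. The ceiling was also reached at the promoters of 56.9% of all genes in replicate 1 and 64.4% in replicate 2. These were 12318 genes in replicate 1 and 13931 in replicate 2, so most genes with a promoter peak reached it. The hotspots were 632 to 1923 bp long in replicate 1 and 429 to 1784 bp in replicate 2, and those of the 2 libraries overlapped by 429 bp or more at all 35 members, Ndc80 included.

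**Figure D1:**
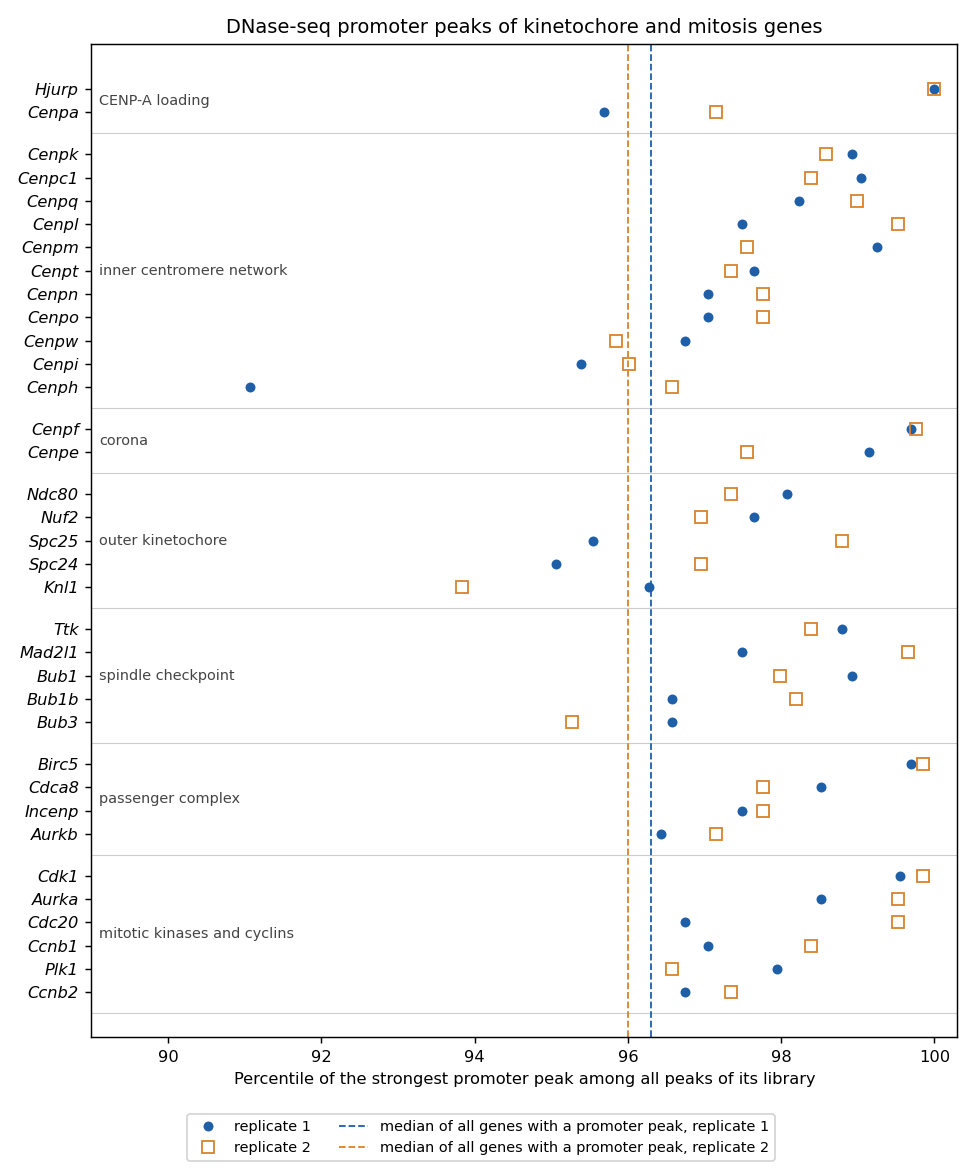
Percentile of the strongest promoter peak of each member (horizontal axis) in replicate 1 (filled circles) and replicate 2 (open squares), by class; dashed lines are the medians of all genes with a promoter peak. Hjurp stands at the upper end in both libraries, and Cenph in replicate 1 is the lowest point at 91.07.

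Among the CENP-A loading genes, Hjurp was the highest of all members and Cenpa among the lower ones. Hjurp encodes the chaperone that deposits CENP-A at centromeres. Its promoter peak had a strength of 134 in replicate 1 at chr1:88277536-88277685, the highest of all peaks there, and of 149 in replicate 2 at chr1:88277556-88277705, a value tied by 2 peaks. Cenpa encodes CENP-A itself. Its strengths were 81 in replicate 1 (chr5:30666756-30666905) and 127 in replicate 2 (chr5:30666736-30666885), at percentiles 95.69 and 97.15. Cenpa ranked below Hjurp in both libraries, and below the median of genes with a promoter peak in replicate 1.

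The 11 genes of the inner centromere network, whose proteins sit on CENP-A chromatin, ranged from strength 59 to 106 in replicate 1 and from 120 to 139 in replicate 2. Cenpc1, which encodes the CENP-C link between CENP-A nucleosomes and the outer kinetochore, had 104 and 133 in replicates 1 and 2. Cenpn and Cenpl encode partners in a dimer, and CENP-N reads the CENP-A nucleosome. Cenpn had 90 and 130, and Cenpl had 93 and 139. The Cenpl promoter was at percentile 97.49 in replicate 1 and 99.52 in replicate 2, so its place depended on the library.

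Cenph, Cenpi, Cenpk and Cenpm encode a complex that joins CENP-C to the rest of the network. Cenpk was the highest of the whole class on the mean of both libraries, with 103 and 134 at the same position in each, chr13:104228816-104228965. Cenpm had 106 and 129 and reached percentile 99.25 in replicate 1. The other 2 subunits were low for the set. Cenph had 59 in replicate 1 (chr13:100775816-100775965) and 124 in replicate 2 (chr13:100775836-100775985), and its 91.07 percentile in replicate 1 was the lowest of all members. Cenpi, the only member on chromosome X, had 79 and 121.

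Cenpt and Cenpw encode histone-fold proteins, and CENP-T recruits the NDC80 complex. Cenpt had 94 and 128 and Cenpw 88 and 120. Cenpo and Cenpq encode subunits of a further complex of the network. Cenpo had 90 and 130 and Cenpq 98 and 136. The strongest Cenpq peak lay 416 bp inside the gene in replicate 1 and 436 bp in replicate 2, the farthest from a TSS of all members, and is described with its neighbour Mut below.

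The corona genes encode proteins of the fibrous outermost layer. Cenpf, a large coiled-coil protein that binds microtubules, had 111 in replicate 1 (chr1:189688096-189688245) and 141 in replicate 2 (chr1:189688136-189688285). Cenpe, a kinesin motor that moves chromosomes to the spindle equator, had 105 and 129 at chr3:135212436-135212585 in both. Cenpf was in the strongest 1% of both libraries and Cenpe in that of replicate 1.

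The outer kinetochore genes were the lowest class by median strength in both libraries, at 85 in replicate 1 and 126 in replicate 2. Ndc80 and Nuf2 encode the microtubule-binding end of the NDC80 complex. Ndc80 had 97 in replicate 1 (chr17:71526816-71526965) and 128 in replicate 2 (chr17:71527016-71527165). These are single promoter peaks with centres 200 bp apart, at −33 and −233 bp to the nearest TSS, and they do not overlap, so that Ndc80 counted as not shared although each peak alone ranked at percentile 97.35 or higher. Nuf2 had 94 and 126.

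Spc24 and Spc25 encode the end of the complex that faces the chromosome. Spc24 had 77 and 126, and Spc25 had 80 and 135. Both ranked below the median of genes with a promoter peak in replicate 1 and above it in replicate 2. Knl1, the scaffold that Bub proteins bind, was the lowest of the class in replicate 2 and on the mean of both libraries, with 85 in replicate 1 (chr2:119047036-119047185) and 110 in replicate 2 (chr2:119046816-119046965). The strongest Knl1 peaks were 220 bp apart, and a weaker replicate 2 peak of strength 108 at chr2:119047056-119047205 gave the shared call.

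Among the spindle checkpoint genes, Ttk was highest and Bub3 lowest on the mean of both libraries. Ttk encodes the kinase MPS1 that starts the checkpoint signal. It had 102 in replicate 1 (chr9:83834516-83834665) and 133 in replicate 2 (chr9:83834556-83834705). Bub1, a kinase that marks centromeric chromatin, had 103 and 131. Bub1b, whose product BUBR1 is part of the mitotic checkpoint complex, had 87 and 132. Mad2l1, which encodes MAD2, had 93 and 140 and so moved from percentile 97.49 to 99.66 between the libraries. Bub3, the partner of both BUB1 and BUBR1, was lowest, with 87 in replicate 1 (chr7:131560316-131560465) and 117 in replicate 2 (chr7:131560216-131560365).

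The chromosomal passenger genes encode the complex that corrects wrong attachments. Birc5, which encodes Survivin, had 111 and 142 at chr11:117849136-117849285 in both libraries and was second only to Hjurp on the mean of both ranks. Cdca8, which encodes Borealin, had 100 and 130. Incenp, the scaffold of the complex, had 93 and 130. Aurkb, its kinase, was lowest, with 86 in replicate 1 (chr11:69045616-69045765) and 127 in replicate 2 (chr11:69045556-69045705).

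The mitotic kinases, cyclins and Cdc20 drive entry into and exit from mitosis. Cdk1, the kinase of mitotic entry, had 109 in replicate 1 (chr10:69352896-69353045) and 142 in replicate 2 (chr10:69352916-69353065). Its cyclin partners were lower. Ccnb1 had 90 and 133, and Ccnb2 had 88 in replicate 1 (chr9:70421476-70421625) and 128 in replicate 2 (chr9:70421516-70421665). Aurka, a kinase of the spindle poles, had 100 and 139. Plk1, a kinase of centrosomes and kinetochores, had 96 and 124. Cdc20, the activator of the anaphase-promoting complex that the checkpoint holds back, had 88 and 139. Cdc20 and Aurka stood at percentile 99.52 in replicate 2, and Cdc20 at 96.74 in replicate 1.

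The order among members was only partly shared by the libraries. Across the 35 members, percentiles in replicate 1 and replicate 2 had a Spearman rho of 0.60 and a Pearson r of 0.51. Across all 14388 genes with a promoter peak in both libraries, rho was 0.89 and r 0.91, over a much wider range of strengths. These are correlations across genes, which share the library and its scale and are not replicates. The members span a narrow range at the bounded top of that scale. Neighbours in the order, such as Cenpo and Cenpn with equal strengths in each library, cannot be ranked, while Hjurp, Birc5, Cenpf and Cdk1 were the 4 highest by the mean of both libraries.

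The strongest promoter peaks of both libraries were matched to each other at 31 of 35 members, and not at Ndc80, Spc24, Knl1 and Bub3. Such matches of the strongest peaks were not counted over all genes. Overlaps were 90 bp at Bub3, Mad2l1, Aurka, Aurkb and Incenp, just above the limit of 75 bp, and up to 150 bp at others such as Birc5, Cenpk and Cenpe, whose positions were identical. The median shift between shared peaks was 20 bp for members and 20 bp for all genes with a shared promoter peak. When 90% of a peak had to overlap, 11 members and 28.8% of all genes kept a shared promoter peak. The centre of the shared peak lay within 100 bp of a TSS at 29 of 34 members (65.6% of all genes with a shared promoter peak) and upstream of it at 23 (69.7%). In replicate 1 the strongest peak was centred outside the gene at 23 of 35 members, in a 5′ UTR at 10 and in an intron at 2, Cenpm and Cenpn. In replicate 2 it was outside the gene at 27, in a 5′ UTR at 6 and in an intron at 2. These locations were not counted over all genes.

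The TSS of another protein-coding gene lay within 1000 bp of the shared promoter peak at 7 of 34 members, against 16.2% of all genes with a shared promoter peak. In 5 pairs the genes pointed away from each other, an arrangement that was not counted over all genes. Cenpk was paired with Ppwd1, a prolyl isomerase gene, over 133 bp between starts. Aurka was paired with Cstf1, a subunit of the cleavage stimulation factor of mRNA 3′ end formation, over 199 bp. Also head to head were Cdca8 with 9930104L06Rik and Cenpn with Cmc2, over 157 and 292 bp.

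The starts of Cenpo and Ptrhd1 and of Cenpq and Mut overlapped in place, with 267 and 362 bp between starts. The Cenpq peak was 416 bp from the Cenpq start and 54 bp from that of Mut, which encodes methylmalonyl-CoA mutase. It was thus nearer to Mut, and its centre did not lie between the starts. In replicate 1 no promoter peak lay nearer to the Cenpq start. Replicate 2 had a weaker peak there, of strength 82 and percentile 84.41, at 36 bp from the Cenpq start. At Aurka the distances were 115 bp to Aurka and 83 bp to Cstf1. At Cenpk they were 64 bp to Cenpk and 68 bp to Ppwd1. A peak near both starts of a pair was counted for both genes, and these data do not divide it. Ccnb1 and Cenph, both members, are neighbours on chromosome 13 with starts 10.5 kb apart, and each had its own promoter peak.

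Sequence was not used to choose the members. A CHR element (TTTGAA or TTCGAA, both strands) was in the window from 250 bp before to 50 bp after the TSS at 18 of 34 members with a shared promoter peak, against 12.4% of the 13899 genes with such a peak. A CCAAT box (CCAAT, both strands) was present at 26 of 34, against 37.6%. Both stood together at 16 of 34, against 5.49%. Searched in the 150 bp of the shared peak alone, as placed in replicate 1, both stood together at 10 of 34, against 1.76%. The promoters of members were less GC-rich, with a median of 55.5% over 1000 bp around the TSS against 59.9% for all genes with a shared promoter peak. In the 3008 genes within the members' GC quartiles of 53 to 57.5%, 16.1% held a CHR, 43% a CCAAT box and 7.88% both. The share at members was above each of these values, but it was taken over all 34 members. Their GC ran from 48.1% to 63%, so members outside the range were not left out.

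**Figure D2:**
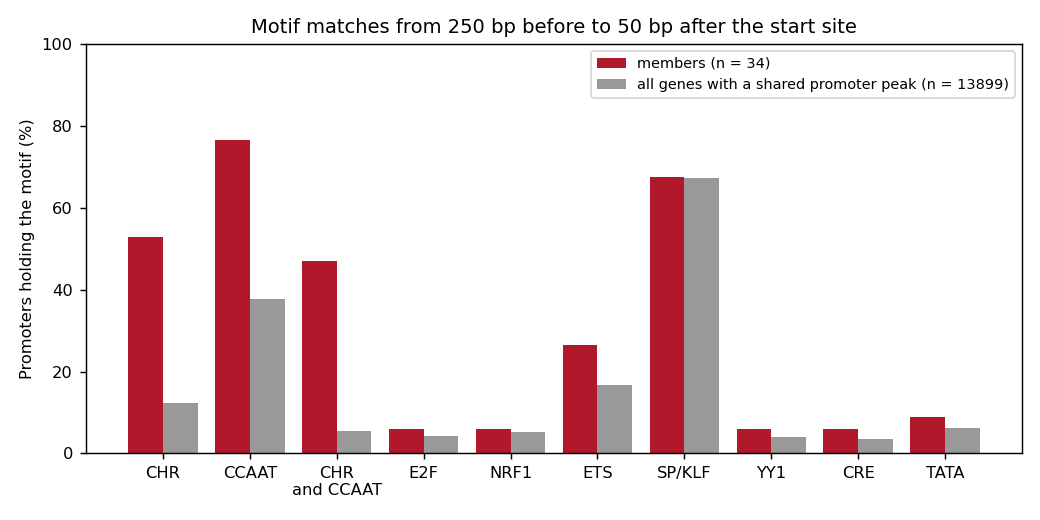
Percent of promoters with each motif (vertical axis) from 250 bp before to 50 bp after the TSS, for 34 members (red) and 13899 genes with a shared promoter peak (grey). CHR stands at 52.9% against 12.4% and CCAAT at 76.5% against 37.6%, while SP/KLF is at 67.6% against 67.2%.

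By class, both motifs were found together in 5 of 6 mitotic kinases and cyclins, Aurka, Plk1, Cdk1, Ccnb2 and Cdc20. Ccnb1 held CCAAT boxes alone. In the checkpoint class, Bub1, Bub1b and Ttk held both, and Bub3 and Mad2l1 held neither. In the passenger complex, Aurkb and Cdca8 held both, Incenp held CCAAT boxes alone and Birc5 held neither. In the inner network 3 of 11 genes, Cenpl, Cenpn and Cenpw, held both. Spc25 was the only one of 4 outer kinetochore genes with both, and Knl1 held a CHR alone. Cenpq, Cenpt and Nuf2 were the remaining members with neither. The promoters with both motifs in the window had a median percentile of 97.72 in replicate 1 and 98.29 in replicate 2 (n = 16). For the other members it was 97.49 and 97.55 (n = 18). The call for a gene depended on the sequence searched. In the RefSeq promoters Bub3, Cenpa and Cenpm held both, and Cenpq held a CCAAT box there and in its shared peak of replicate 1. Searched in the shared peak of replicate 1 alone, Hjurp, Cenpf, Cenpl, Cenpn, Bub1b, Ttk and Aurka did not hold both. In replicate 2 the shared peaks of Ttk and Aurka held both, and the CHRs of Plk1 and Cdc20 lay outside the peak.

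The CHR matches lay close to the start. Their first base had a median position of −3 over 22 matches, and a CHR began within 50 bp of the TSS at 16 of 34 members, against 2.99% of all genes with a shared promoter peak. In Aurka the match spanned the TSS at −3 to 3, and in Ttk it ran from 7 to 12. In Bub1 it began at 21 and read TTCGAA. Of the 22 matches, 10 lay in the shared peaks of both libraries. The 46 CCAAT boxes had a median first base at −39, and 31 of them lay in the peaks of both libraries. Of these 46 boxes, 11 began at the start or after it. At 12 of the 16 members with both motifs, the last CHR lay downstream of every CCAAT box, an order not counted over all genes. The exceptions were Hjurp, Cenpl, Cdca8 and Cdc20. For Hjurp, the CHR in its printed peak lies downstream of the window and was not counted. In Cenpw the CHR and the CCAAT box overlapped at the base at −5.

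At least 2 CCAAT boxes stood in the window of 15 of 34 members, against 14.1% of all genes with a shared promoter peak. Neighbouring boxes began 30 to 34 bp apart at 7 of 34 members, against 2.55% of all genes with a shared promoter peak. These 7 were Spc25, Aurka, Aurkb, Cdca8, Cdk1, Ccnb1 and Ccnb2. The spacing was 32 bp in Spc25, Aurka, Cdk1 and Ccnb1, and Ccnb2 held 3 boxes with gaps of 33 and 33 bp. The limits of 30 and 34 bp, the 50 bp around the start and the GC range were set after the members' values had been seen. A match describes letters in a window and is not evidence of binding.

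**Figure D3:**
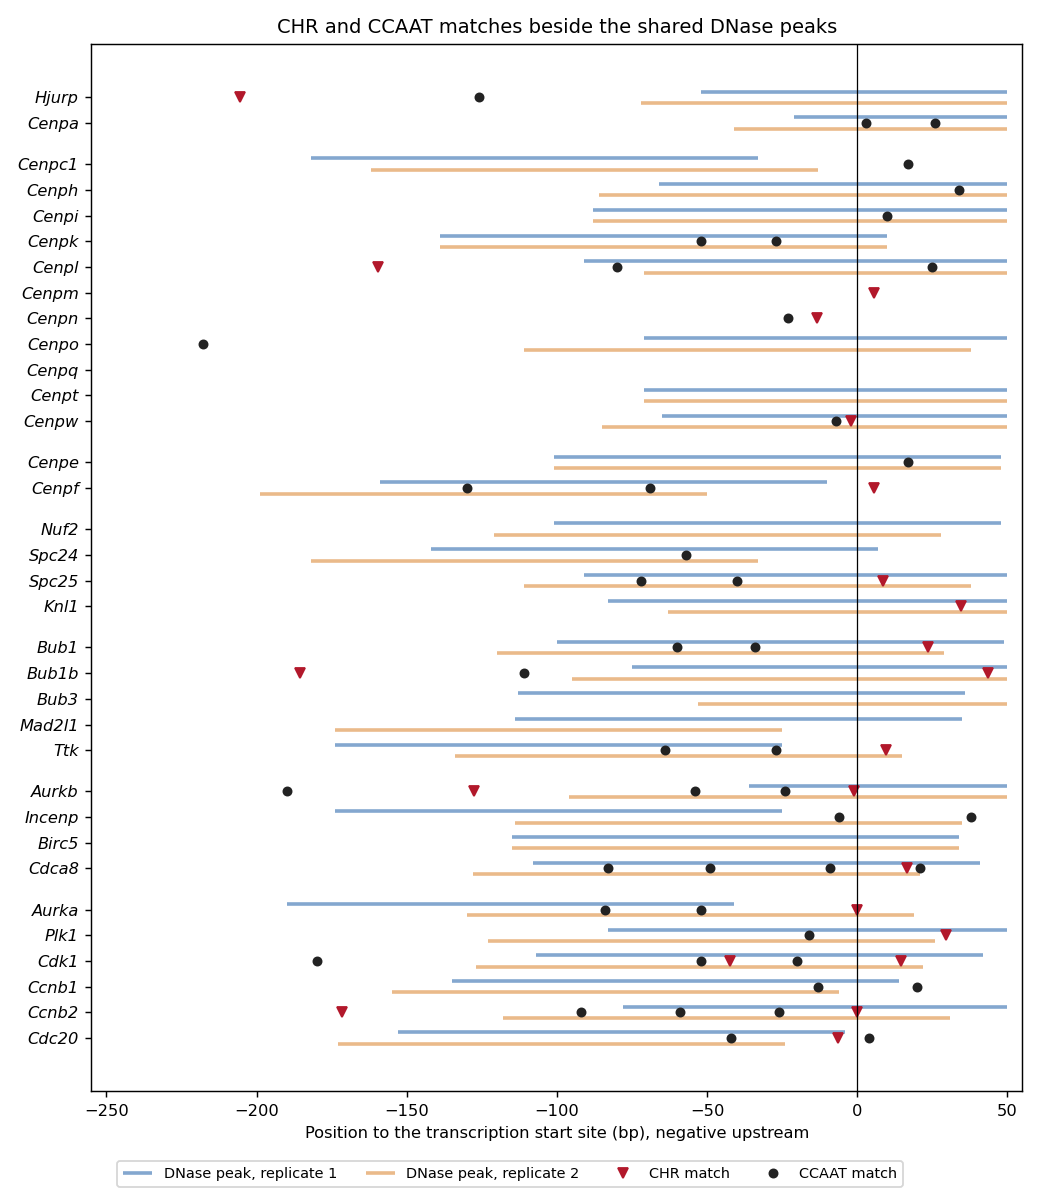
Positions of CHR (red triangles) and CCAAT (black circles) matches around the TSS (horizontal axis, bp) at the 34 members with a shared promoter peak; bars are the shared peaks of replicate 1 (blue) and replicate 2 (orange), drawn within the searched window only. Most CHR matches stand at the start site, with a median of −3. Most CCAAT boxes stand upstream of it, with a median of −39, while 11 of 46 begin at the start or after it. The shared peaks of Cenpm, Cenpn and Cenpq lie outside the window.

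The other motifs searched are given with the share of all genes with a shared promoter peak in brackets. E2F motifs (TTTCGCGC, TTTGGCGC, TTTCCCGC or TTTGCCGC) were in 2 of 34 members, Cdk1 and Cenpl (4.23%). NRF1 (GCGCATGC) was in 2 (5.2%), YY1 (GCCATNTTG) in 2 (3.94%) and the letters TATAAA in 3 (6.32%). The CRE (TGACGTCA) was in 2, Cenpe and Cenpw (3.54%). SP/KLF (GGGCGG) was in 23, a share of 67.6% close to that of the other genes (67.2%). ETS (CCGGAAG) was in 9, a share of 26.5% that lay above theirs (16.8%). All were searched on both strands in the same window.

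Distal peaks were about as common around these genes as around all genes. A distal peak lies more than 1000 bp from any protein-coding TSS and is listed under the gene with the nearest one, which need not be its target. At least 1 shared distal peak was listed under 23 of 35 members, against 62.8% of all genes, which is close to the share of members. The members had 102 shared distal peaks in all, and 112 were expected if all 62959 were spread evenly over the genome by the size of the interval nearest to each gene. In single libraries, with no sharing needed, there were 333 in replicate 1 and 304 in replicate 2. Of the 102 peaks, 15 lay inside the members' own genes, such as 3 of 3 at Cenpi, 2 of 4 at Hjurp and 0 of 10 at Aurkb. The share inside genes was not counted over all shared distal peaks. The median strength percentile of the 102 peaks was 67.1, and that of all shared distal peaks was 71.6.

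Most shared distal peaks were listed under Cenpf and Aurkb, with 10 each, where 3.9 and 0.521 were expected. The Cenpf peaks lay 1.26 to 109 kb away, and 2 of them matched the same replicate 2 peak. Bub3 had 9 (4.93 expected), at 2.33 to 186 kb, and Nuf2 had 9 in a larger interval (14.6 expected). Cenpc1 had 8 with 19.8 expected and Cenpq 4 with 16.5, in intervals of 827 and 691 kb. Cdk1 had 6 with 2.22 expected, and 2 of the Cdk1 peaks matched the same replicate 2 peak. The strongest distal peak of Cdk1 was 31.5 kb from the TSS, with strengths of 64 and 104. No shared distal peak was listed under 12 members, among them Birc5, Aurka, Plk1, Ttk, Ccnb1 and Ndc80, of which the most expected was 1.42 for Ttk.

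**Figure D4:**
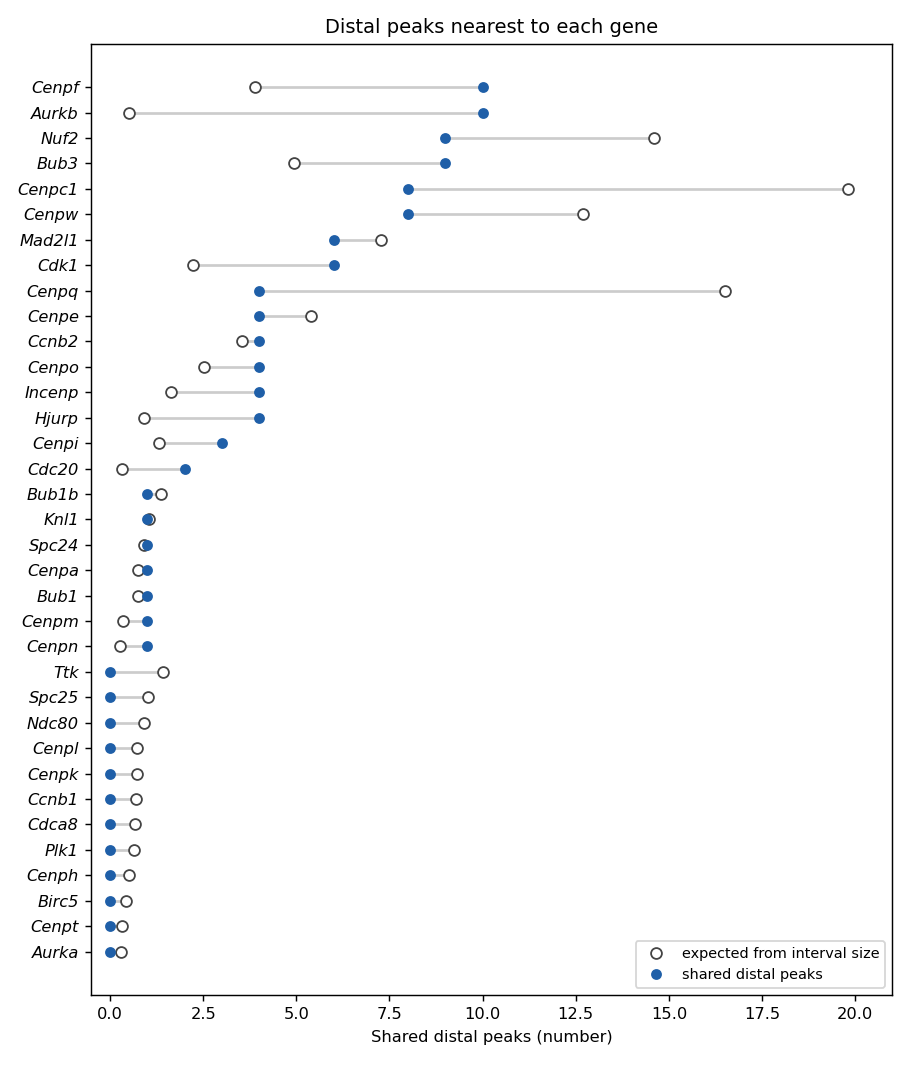
Shared distal peaks listed under each member (filled circles) and the number expected from the size of its interval (open circles); the horizontal axis is a number of peaks. Aurkb stands at 10 with 0.521 expected, and Cenpc1 at 8 with 19.8 expected.

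The distal peaks of Aurkb stood apart in strength. They lay 3.26 to 9.6 kb upstream of the gene, with strengths of 21 to 101 in replicate 1 and 28 to 128 in replicate 2, and 9 of 10 had a mean percentile above 90. Over all members, 13 of 102 distal peaks did, with the 9 Aurkb peaks included. The share over all shared distal peaks was not counted, and their upper quartile lay at percentile 83.5. Some Aurkb peaks overlapped each other, such as chr11:69041716-69041865 and chr11:69041796-69041945, so the 10 are not all separate sites. The RefSeq annotation places 7 tRNA genes in this stretch, from chr11:69037003 to chr11:69041897, and 8 of the 10 peaks overlapped 6 of them. The strongest, at chr11:69041716-69041865 with strengths of 101 and 128, overlapped the tryptophan tRNA gene n-TWcca7 and was stronger than the Aurkb promoter peak, at 86 and 127, in each library. Aurkb was the only member with a distal peak over a tRNA gene, and 0.427% of all shared distal peaks overlapped such a gene.

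**Figure D5:**
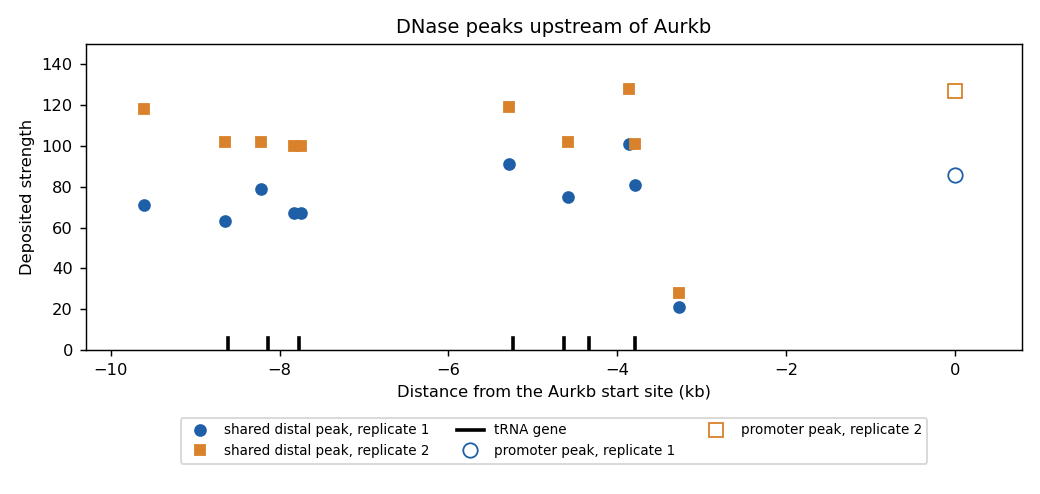
Deposited strength (vertical axis) of the 10 shared distal peaks upstream of Aurkb and of its promoter peak in replicate 1 (circles) and replicate 2 (squares), by distance from the Aurkb TSS in kb; black ticks mark 7 tRNA genes. The peak over the tRNA gene nearest to Aurkb reaches 101 and 128, and the peaks over no tRNA gene have 21 and 28 at 3.26 kb and 71 and 118 at 9.6 kb.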

How the data were processed

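DNase-seq peaks and hotspots of 2 libraries were used as deposited, on mm10 per the file notes. Per the file notes, the authors called peaks and hotspots on each library. The authors deposited a signal per peak, called strength, in a unit that no file note states. The authors deposited a −log10 q for each hotspot in the hotspot files. Aligner and caller remain not given in the sources used here. No read totals were used, so depth and its error are unknown.

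Ranks within a library used the mean rank of ties, on chromosomes 1 to 19 and X. TSSs came from protein-coding transcripts of the GENCODE M21 basic set (41135 sites). The midpoint of a peak placed it. Sequence was read from GRCm38.p6 with pysam 0.24.0, and tables were made with pandas 2.3.3, NumPy 2.4.6 and Python 3.11.15. Matching, gene assignment and motif search were tested on simulated data. Motifs were searched at the TSS nearest to the strongest shared promoter peak. All members are named with their strongest peak, positions in full for the highest and lowest of each class, for Ndc80 and for those with most distal peaks. Members and lists were chosen with earlier results of these data known. Alternatives changed the overlap, the promoter window, the peak threshold, the TSS set, the ranking and the sequence searched, and left out each library. A further gene neighbouring a member is not reported here.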

Additional observations from a re-analysis of the deposited data

How the results depend on the processing

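With 90% of the peak required to overlap, members with a shared promoter peak numbered 11, all genes with one fell to 28.8%, and shared distal peaks of members fell to 31. With only the 50000 strongest peaks of each library, 13 members had a shared distal peak and 28 such peaks remained. Leaving out a library removed the need for sharing: members with a promoter peak were then 35 in both cases, all genes 67.3% to 70.8%, members with a distal peak 26 to 29, distal peaks 304 to 333, and the median percentile 97.49 to 97.76. Ranked among promoter peaks only, the median percentile was 87.43. The other settings moved these counts by at most 1.5 times. Members with a shared promoter peak stayed at 34 with an overlap of 1 bp, promoter windows of 500 and 2500 bp, the 50000 strongest peaks and the TSSs of all transcripts. In the shared peak itself, as placed in replicate 1, CHR was held by 13 of 34 members (4.42% of all genes with a shared promoter peak). CCAAT was held by 22 (28%) and both by 10 (1.76%). From 500 bp before to 100 bp after the TSS, these were 27 (29.7%), 28 (54.2%) and 21 (17.4%). In the RefSeq promoters they were 19 of 31 (15.7%), 25 (42.6%) and 18 (6.62%). E2F motifs were in 2 to 3 members. No paired analysis was possible because the 2 libraries form a single group. With 2 libraries and strengths of unknown relation to depth, differences between members of similar rank are not resolved.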

Other observations

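Of 98 mitosis genes outside the set, in 5 lists, 96 had a shared promoter peak, against 64.2% of all protein-coding genes. All 23 kinetochore and centromere genes had it, as did 16 of 16 genes of the anaphase-promoting complex and mitotic exit and 19 of 19 genes of condensin and cohesin. The exceptions were the kinesin gene Kif14 and the MuvB gene Lin52. Kif14 had peaks of strength 97 and 133 at chr1:136466216-136466365, 1.64 kb from its nearest protein-coding TSS in the set used, and had a shared promoter peak with the TSSs of all transcripts. Lin52 had a promoter peak in each library but none shared. The 98 genes were listed with earlier results of these data known, so they describe these libraries and are no independent evidence.

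Of 11 germ line counterparts, 5 had a shared promoter peak, against 64.2% of all protein-coding genes. Stag3, a meiotic cohesin gene, stood at percentile 98.52 in replicate 1 and 99.98 in replicate 2, as high as members. Smc1b, also of meiotic cohesin, stood at 96.74 and 93.63, and Ccna1, a cyclin A of germ cells, at 94.40 and 96.02. Rec8 and Terb1 were lower, at 72.50 and 83.40 and at 79.91 and 75.78. Aurkc, the meiotic relative of Aurkb, Ccnb3, a cyclin B of germ cells, and Meikin, a kinetochore protein of meiosis, had no shared promoter peak, nor had the telomere attachment genes Majin and Terb2 or the meiotic cohesin gene Rad21l. This held for these 6 genes with the TSSs of all transcripts too. The CHR and CCAAT pair was in the window of 32 of the 96 other mitotic genes with a shared promoter peak (33.3%), against 5.49% of all genes with such a peak. It was in 11 of 19 spindle motor and microtubule genes, among them Kif11, Kif23 and Prc1, and 6 of 23 kinetochore and centromere genes.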
